A study of Mus musculus with 4 samples.

Results

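Macrophage genes were examined in semilunar valve leaflets, aortic and pulmonary, from neonates that lacked Cxcr7 and from their wildtype littermates. The set held 40 genes chosen by name as markers of tissue macrophages, monocytes or leukocytes in general, out of 18193 genes with a probe set of their own on the array. The choice was made with earlier results of these data known. Each gene was read from 1 probe set, the one with the highest mean signal over the arrays among those annotated to that gene alone. All 40 genes had such a probe set. The study used 4 arrays of amplified RNA, each from the leaflets of 3 pooled neonates. The Cxcr7-/- group had 2 pools, with 4 to 6 leaflets taken from each animal, and the Control group had 2 pools of wildtype littermates with 6 leaflets from each animal. The labels name no agent for either group, and they give neither the strain, the design of the null allele, the sex of the mice nor an age beyond neonatal. The labels call the pools biological replicates, and p-values measure the spread between these pools only.

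Resident macrophages settle in the heart before birth and live in the valve leaflets among the interstitial cells that make the matrix. They depend on signals through the growth factor receptor Csf1r and on the transcription factor PU.1, encoded by Spi1, and they clear dead cells and debris through scavenger receptors, complement C1q and Fc receptors. Many monocytes that enter from blood carry Ccr2, and the phosphatase CD45, encoded by Ptprc, marks all leukocytes. Cxcr7, now named Ackr3, is an atypical receptor that takes up the chemokine CXCL12.

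The deleted gene served as a check of the labels. Ackr3 read 28.3 and 328 in Cxcr7-/- leaflets against 4936 and 5698 in Control leaflets. Genes of valve interstitial cells were bright in all pools, with periostin (Postn) at 52492 and 59023 in Cxcr7-/- leaflets against 58057 and 35352 in Control leaflets. Across all probe sets kept, the log2 values of the Control pools correlated at r = 0.931 and those of the Cxcr7-/- pools at r = 0.956, which describes probe sets and not replicates. As a sign of RNA length, the Actb control gave a 3' signal over its 5' signal of 15.5 and 11.7 in Cxcr7-/- leaflets against 20.2 and 19.1 in Control leaflets. For the Gapdh control the ratio was 12.6 and 8.20 in Cxcr7-/- leaflets against 12.7 and 24.2 in Control leaflets, so Control pool 2 was the highest. The part of RNA length in the values that follow was not tested.

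Macrophage genes as a set were higher in both Cxcr7-/- pools. In 27 of the 40 genes both Cxcr7-/- pools lay above both Control pools, and in none did both lie below. The background was 18.3% of all 18193 genes above and 19.0% below. In 23 of these the means were also at least 1.5-fold apart, where 7.79% of all genes met both conditions. The median log2 fold change, Cxcr7-/- minus Control, was 0.68 over the 40 genes and -0.02 over all genes. It was positive for 37 of the 40, where 48.4% of all genes were positive. The members were chosen with earlier results of these data known, so these shares are no independent test of macrophage genes. Among the 61 macrophage genes measured outside the set, both Cxcr7-/- pools were above both Control pools in 24.6% and below in 14.8%. In pooled tissue, a different number of macrophages and a different amount of RNA per macrophage cannot be told apart.

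No gene of the set passed the adjusted threshold. In limma's fit over the 22518 probe sets whose mean was above the median, 0 of the members had an adjusted p under 0.05, and neither did any other probe set (0%, smallest adjusted p 0.400). The deleted gene Ackr3 was itself not called, at a log2 fold change of -5.33 ± 0.76 and an adjusted p of 0.400 from limma. The absence of calls therefore does not show that the macrophage genes were unchanged. At an unadjusted p under 0.05 in the fit without a filter, 18 of the 40 were higher and 0 lower, where the background was 3.46% of genes higher and 3.69% lower. The fold changes below are therefore values and not calls. Of the 40 genes, 36 were bright enough for the filtered fit. Aif1, Ccr2 and Cd84 were among these only because of their signal in the Cxcr7-/- pools, and Marco, Folr2, Trem2 and Clec10a were too dim.

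**Figure D1:**
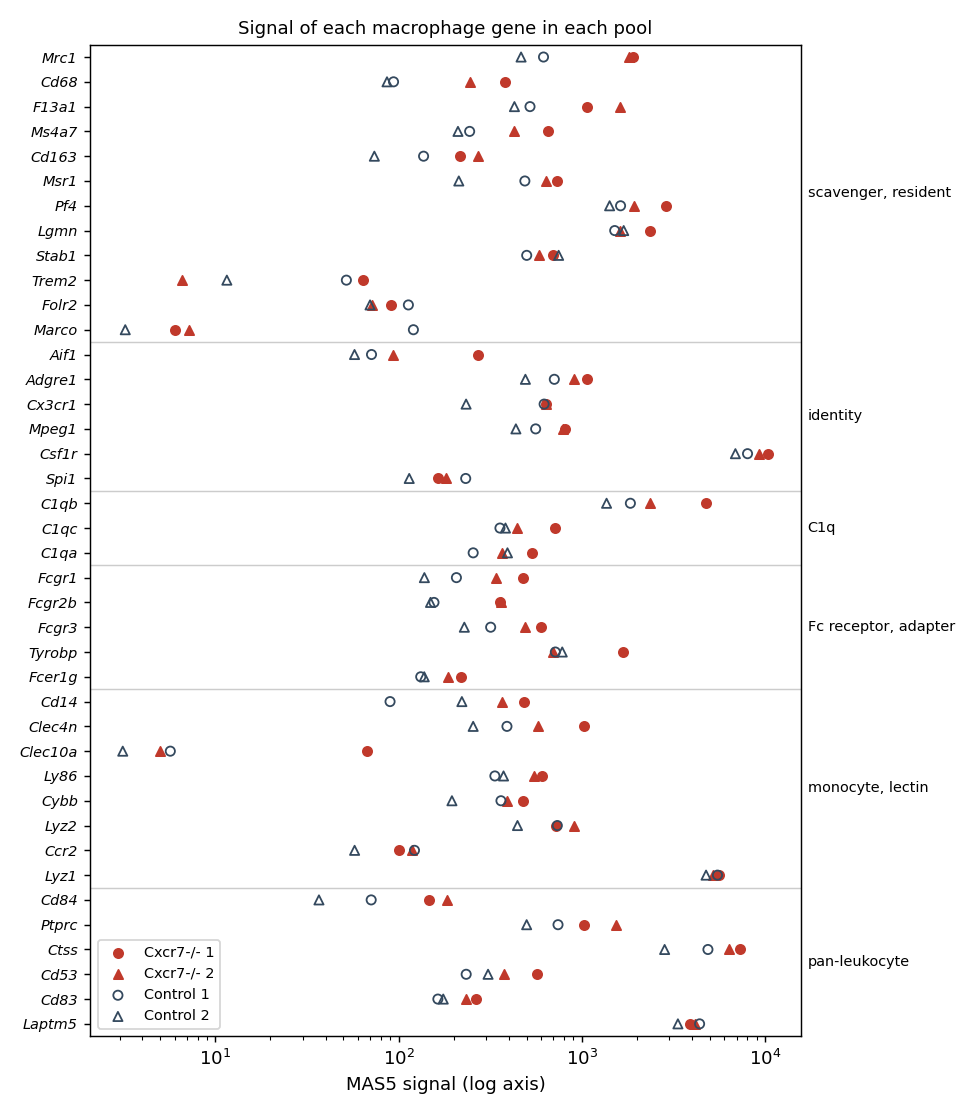
Signal of each of the 40 genes (rows, grouped by role) in each of the 4 pools, on a log axis of MAS5 signal. Filled red points are Cxcr7-/- pools and open points Control pools, and circles and triangles mark pools 1 and 2. For Mrc1, Cd68 and F13a1 the red and open points stand clear of each other, while for Lyz1, Laptm5 and Stab1 they mix.

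The scavenging and resident-macrophage genes held the largest values. The mannose receptor Mrc1, which takes up glycoproteins and collagen fragments, read 1908 and 1820 in Cxcr7-/- leaflets against 618 and 466 in Control leaflets. The difference of 3.37-fold (log2 1.75 ± 0.28, SE, n = 2 and 2 pools) was larger than the difference within either genotype. Cd68, a glycoprotein of macrophage lysosomes, read 381 and 246 against 93.9 and 86.5, or 2.93-fold (1.55 ± 0.38). The dimmer of its Cxcr7-/- pools was still above the brighter Control pool. F13a1, the transglutaminase subunit of coagulation factor XIII that resident macrophages also make, read 1063 and 1627 against 522 and 429, or 2.70-fold (1.43 ± 0.32). The adjusted p from limma was 0.400 for Mrc1 and 0.406 for both Cd68 and F13a1. Ms4a7, a membrane protein gene of tissue macrophages, read 655 and 427 against 244 and 211, at 1.15 ± 0.34 on the log2 scale. In these 4 genes the Cxcr7-/- pools stood well apart from the Control pools on the chosen probe sets. The other probe set of Ms4a7 was dim and overlapped between genotypes, at 0.33 ± 0.57.

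The next genes of the group had smaller fold changes. Cd163, the receptor for haptoglobin-bound haemoglobin, read 216 and 271 against 137 and 73.8, at 1.10 ± 0.41. Msr1, the class A scavenger receptor for modified lipoproteins, read 732 and 639 against 489 and 213, at 1.02 ± 0.41. The Control pools differed from each other by 1.12 on the log2 scale for Msr1, more than the genotypes did. Pf4, a chemokine of platelets and of some resident macrophages, read 2879.8 and 1934 against 1629 and 1419, at 0.63 ± 0.28. On the chosen probe sets, the pools did not overlap in any of these 3. The further probe sets of Msr1 gave 0.70 ± 0.51 above the filter, and 0.21 ± 0.76 and 0.36 ± 0.44 below it.

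In the other 5 genes of this group the genotypes overlapped. Stab1, a scavenger receptor of macrophages and some endothelium, read 695 and 581 against 501 and 748, at 0.05 ± 0.32. The lysosomal protease gene Lgmn read 2351 and 1619.8 against 1513 and 1694, at 0.28 ± 0.28. Folr2, a folate receptor that marks resident macrophages, read 91.1 and 72.1 against 113 and 69.9, so the gene was dim everywhere and showed no separation. The lipid receptor gene Trem2 read 64.3 and 6.58 against 51.9 and 11.6, with pool 1 of each genotype high and pool 2 low. Marco, a scavenger receptor of alveolar and marginal zone macrophages, read 6.01 and 7.21 against 121 and 3.22, so Control pool 1 alone carried signal. Its second probe set had the same pattern, with 65.8 in Control pool 1 and at most 7.90 in the other pools. The resident markers therefore did not all go together: Mrc1, Cd163 and F13a1 were higher, while Folr2 and Stab1 differed by less than their standard errors.

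Promoter sequence is shown for the 4 scavenger and resident genes with the largest fold changes, since these genes had their higher signal in the same pools. The 250 bases before the RefSeq start of each gene were read from GRCm38.p6, at chr2:14229164-14229413 (plus strand) for Mrc1, chr11:69666171-69666420 (minus strand) for Cd68, chr13:37050245-37050494 (minus strand) for F13a1 and chr19:11336147-11336396 (minus strand) for Ms4a7, and are written 5′ to 3′ on the gene's strand. F13a1 and Ms4a7 have 2 annotated starts each, of which the first listed is shown. Capitals mark the word GAGGAAG, the shorter word GGAAGT or the word TTTCCTC on either strand, all built on the core that PU.1 and other ETS factors bind.
Mrc1: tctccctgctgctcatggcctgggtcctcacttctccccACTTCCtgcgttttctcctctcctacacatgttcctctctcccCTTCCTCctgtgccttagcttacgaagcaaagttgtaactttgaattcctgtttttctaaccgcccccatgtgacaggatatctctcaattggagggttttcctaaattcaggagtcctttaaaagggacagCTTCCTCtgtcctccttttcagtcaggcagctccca
Cd68: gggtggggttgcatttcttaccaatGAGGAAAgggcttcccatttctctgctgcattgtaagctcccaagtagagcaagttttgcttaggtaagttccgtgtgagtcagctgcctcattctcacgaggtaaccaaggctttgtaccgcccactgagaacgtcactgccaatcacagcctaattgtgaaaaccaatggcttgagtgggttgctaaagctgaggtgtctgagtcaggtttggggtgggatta
F13a1: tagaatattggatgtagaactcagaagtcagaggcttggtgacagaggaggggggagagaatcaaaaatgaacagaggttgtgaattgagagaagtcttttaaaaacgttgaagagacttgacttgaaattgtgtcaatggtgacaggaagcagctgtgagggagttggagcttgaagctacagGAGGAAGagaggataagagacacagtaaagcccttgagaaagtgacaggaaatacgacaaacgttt
Ms4a7: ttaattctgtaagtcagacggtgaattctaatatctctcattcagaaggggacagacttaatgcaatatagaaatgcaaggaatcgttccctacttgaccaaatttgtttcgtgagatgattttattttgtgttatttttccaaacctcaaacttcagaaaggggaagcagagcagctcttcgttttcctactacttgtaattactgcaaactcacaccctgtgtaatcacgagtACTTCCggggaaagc

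These words lay at different distances from the start. In Mrc1 there were 3 marked words, the nearest beginning 36 bases before the start and the others 168 and 211 bases before it. The marked word began 66 bases before the start in F13a1, 15 in Ms4a7 and 225 in Cd68. For the shares, a gene counted if the 250 bases before any of its annotated starts held the word. Genes with more starts thus had more sequence searched. Among the 30 genes of the set with a promoter in the table, 9 (30.0%) held GAGGAAG on either strand, against 12.0% of 27025 genes. GGAAGT stood in 13 (43.3%) against 22.2%, and TTTCCTC in 4 (13.3%) against 8.73%. F13a1 counted for GGAAGT, although its window shown above does not hold that word. Longer words were rare. The word GAGGAAGT, which contains the first and the second word, stood in C1qc and Pf4 (2 genes, 6.67%, against 2.79%), while the still longer AGAGGAAGT stood in none (0%, against 0.940%). TATAAA, searched beside them, stood in 4 (13.3%) against 14.3%. A match is a run of letters and not evidence of binding, and the shares were not tested.

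The 6 genes of macrophage identity had log2 fold changes from 0.06 to 1.09, and 2 of them had an unadjusted p under 0.05 in the fit without a filter. The background of genes higher at that threshold was 3.46%. Csf1r, the receptor for the macrophage growth factors CSF1 and IL-34, read 10428 and 9317 in Cxcr7-/- leaflets against 8035 and 6899 in Control leaflets, at 0.40 ± 0.22. The pools did not overlap, but the difference was under 2 SE, and its 2 other probe sets gave 0.37 ± 0.25 and 0.04 ± 0.32. Adgre1, which encodes the F4/80 antigen, read 1067 and 907 against 709 and 493, at 0.71 ± 0.30. Mpeg1, a pore-forming protein of phagosomes, read 806 and 786 against 560.4 and 437, at 0.66 ± 0.29. Both genes were even within the Cxcr7-/- group and lower in each Control pool.

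Single pools set the values of the other 3 identity genes. The fractalkine receptor gene Cx3cr1 read 637 and 637 against 623 and 234, so Control pool 1 was level with the Cxcr7-/- pools. Its log2 fold change of 0.70 ± 0.44 was 0.03 without Control pool 2 and 1.37 without Control pool 1. Aif1, which encodes the actin-binding protein Iba1, read 271 and 93.0 against 71.2 and 57.5, at 1.09 ± 0.52, and the first Cxcr7-/- pool was far above the second. Spi1, the gene of PU.1, read 164 and 182 against 233 and 114, at 0.06 ± 0.42, with both Cxcr7-/- pools between the Control pools.

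The C1q chains, which join into the complex that starts the classical complement pathway and tags debris for uptake, all had positive values. C1qb read 4751 and 2344 against 1843 and 1366, at 1.06 ± 0.36. Its 2 further probe sets read 3430 and 2917 against 2117 and 1545 (0.80 ± 0.24), and 742 and 735 against 362 and 374 (0.96 ± 0.25). All 3 probe sets of C1qb thus had both Cxcr7-/- pools above both Control pools. C1qc read 713 and 445 against 358 and 383 (0.58 ± 0.33), also without overlap. C1qa read 538 and 365 against 256 and 393 (0.46 ± 0.36), and here the second Cxcr7-/- pool lay below the second Control pool. The first Cxcr7-/- pool was the highest for each chain. The median over the 3 chains was 0.25 without that pool and 0.91 without Cxcr7-/- pool 2.

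Fc receptors bind antibody-coated particles, and Fcer1g and Tyrobp encode adapters that carry their signals and those of related receptors. The high-affinity IgG receptor Fcgr1 read 480.1 and 339 against 207 and 138, at 1.15 ± 0.36. Its other probe set was dim and overlapped between genotypes, at 0.20 ± 0.83. The inhibitory receptor Fcgr2b read 356 and 363 against 156 and 149, at 1.13 ± 0.33, and its values without each pool in turn ran from 1.10 to 1.15. Its other probe sets above the filter gave 0.63 ± 0.38 and 1.29 ± 0.52. The activating receptor Fcgr3 read 602 and 491 against 318 and 229, at 0.95 ± 0.33. These 3 receptors were each about as far apart as the scavenger receptors Cd163 and Msr1.

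The adapters were closer. Fcer1g read 220.2 and 187 against 132 and 138, at 0.52 ± 0.35. Tyrobp read 1674 and 697 against 718 and 783, at 0.52 ± 0.41. The whole difference in Tyrobp came from Cxcr7-/- pool 1, and without that pool its log2 fold change was -0.10.

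**Figure D2:**
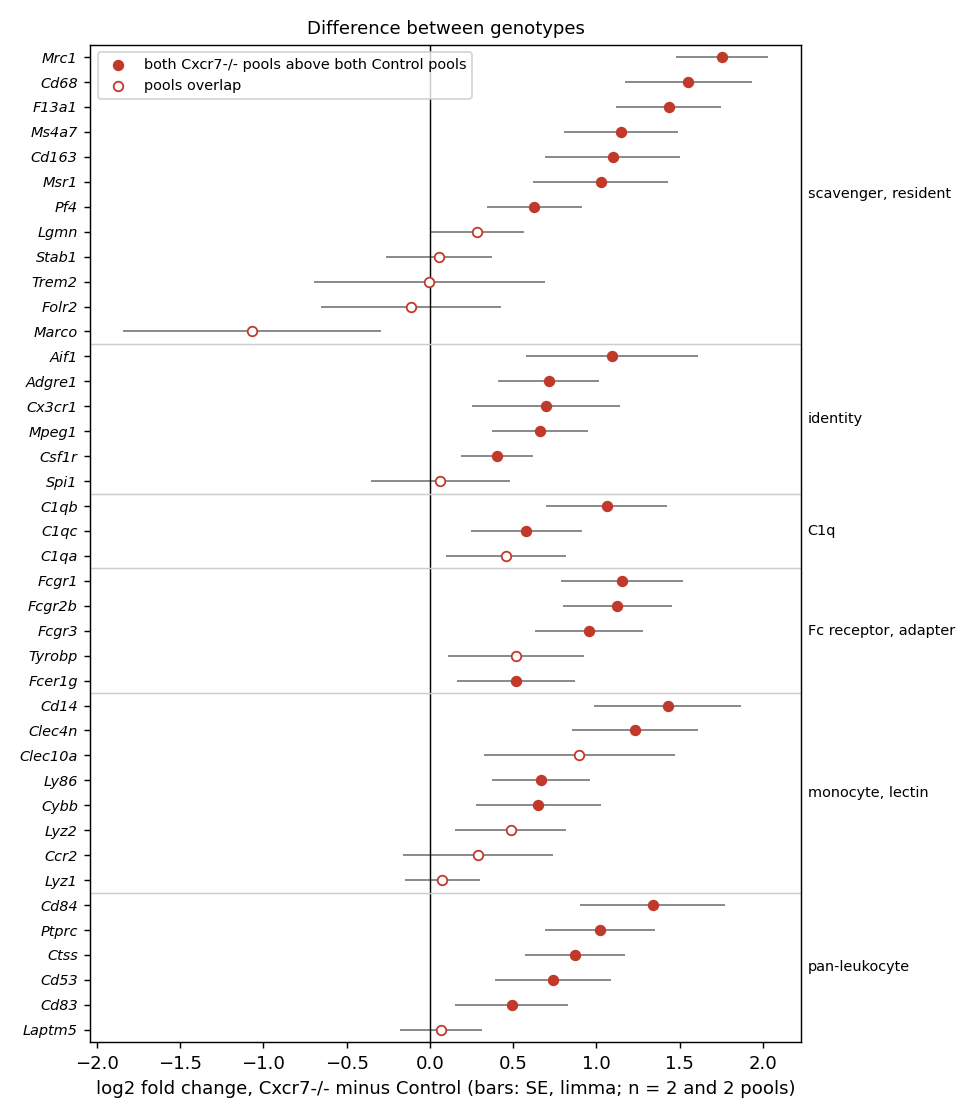
Log2 fold change of each gene, Cxcr7-/- minus Control, in the order of the signal plot, with the standard error of limma's fit (n = 2 and 2 pools). Filled points, 27 of 40, mark genes whose Cxcr7-/- pools both lay above both Control pools. Values run from -1.07 for Marco to 1.75 for Mrc1.

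Genes of monocytes and of inflammatory myeloid cells were divided. Cd14, the co-receptor for bacterial lipopolysaccharide, read 486 and 366 against 89.9 and 222, at 1.43 ± 0.44. Its Control pools were far apart, and unlike most of the set it was the first of them that was low. Clec4n, which encodes the fungal receptor Dectin-2, read 1030.1 and 578 against 391 and 255.5, at 1.23 ± 0.38. Its other probe set gave 1.67 ± 0.53. Ly86, the partner of the Toll-like receptor relative CD180, read 608 and 546 against 336 and 374, at 0.67 ± 0.30. Cybb, the catalytic subunit of the phagocyte oxidase, read 479 and 389 against 362 and 196, at 0.65 ± 0.38. The Cxcr7-/- pools were above the Control pools in these 4.

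Ccr2, a chemokine receptor of many but not all blood-derived monocytes, was dim and overlapped between genotypes. It read 100.3 and 118 against 122 and 57.6, at 0.29 ± 0.45. The lysozyme gene Lyz2 read 719.8 and 913 against 736 and 446, at 0.48 ± 0.34, and Lyz1 read 5596 and 5213 against 5507 and 4771, at 0.08 ± 0.22. Lyz1 and Lyz2 are near-identical copies, so the signal of either may include the other. The lectin gene Clec10a read 67.2 in Cxcr7-/- pool 1 and at most 5.68 in the other pools.

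Genes shared by all leukocytes or by antigen-presenting cells had log2 fold changes from 0.07 to 1.34, and 3 of the 6 had an unadjusted p under 0.05 in the fit without a filter. Of all genes, 3.46% were higher at that threshold. Ptprc read 1032 and 1535 in Cxcr7-/- leaflets against 742 and 500.4 in Control leaflets, at 1.02 ± 0.33. Cd84, an adhesion receptor of the SLAM family, read 147 and 185 against 70.9 and 36.8, at 1.34 ± 0.43. The cysteine protease gene Ctss, which acts in antigen processing, read 7339.6 and 6343 against 4884 and 2834, at 0.87 ± 0.30. The tetraspanin gene Cd53 read 567 and 378 against 234 and 308 (0.74 ± 0.35), and the activation marker Cd83 read 263 and 232 against 164 and 175 (0.49 ± 0.34). In these 5 genes the pools did not overlap.

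Laptm5, a lysosomal membrane protein gene of blood cells, was the exception. It read 3900.5 and 4146 against 4398 and 3349, at 0.07 ± 0.24. Its other 3 probe sets above the filter gave 0.55, -0.05 and -0.05. The brightest probe sets of Laptm5 and Lyz1 carry the x suffix, Affymetrix's mark for probes that may bind other transcripts, and so does that of C1qb. The median log2 fold change was 0.08 over these 3 genes, of which C1qb was at 1.06. It was 0.66 over the 30 genes read by a probe set without such a mark or one for shared transcripts. Over the genes with a mark for shared transcripts, it was 1.13 for the 3 with the s suffix and 0.38 for the 4 with the a suffix.

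The scavenger and resident genes were set beside the other roles without a test of the difference. The median log2 fold change was 0.83 over the 12 scavenger and resident genes, 0.66 over the 8 monocyte genes and 0.81 over the 6 pan-leukocyte genes. Without the dim genes, it was 1.10 over 9 scavenger and resident genes, 0.65 over 7 monocyte genes and 0.81 over the 6 pan-leukocyte genes. The scavenger genes left out as dim, Marco, Folr2 and Trem2, were the only negative ones of the group. With all probe sets of a gene averaged, the median was 0.60 over the scavenger and resident genes and 0.61 over the monocyte genes. In the main setting the median was 0.68, 0.58 and 0.95 over the 6 identity, 3 C1q and 5 Fc receptor genes. Within each pool, the median deviation of the scavenger genes from their mean minus that of the pan-leukocyte genes was 0.08 and -0.09 in Cxcr7-/- leaflets against 0.04 and -0.19 in Control leaflets, on the log2 scale. Against the monocyte genes it was 0.07 and -0.07 in Cxcr7-/- leaflets against -0.09 and -0.15 in Control leaflets. The first difference overlapped between genotypes, and in the second both Cxcr7-/- pools were above both Control pools, by 0.01.

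The 31 other probe sets of the same genes offered a reading that the choice of probe set did not use. Of these, 24 had the sign of the chosen probe set and 22 were positive, with a median of 0.33. Most were dim. Among the 12 above the filter, which belong to 7 genes, 10 agreed in sign, and the median was 0.59. The filter took the mean of all pools, so signal in the Cxcr7-/- pools could carry a probe set over it. That held for the largest values of the 12, from Clec4n (1.67) and Fcgr2b (1.29). Their Control pools read 44.5 and 79.7 for Clec4n and 48.8 and 92.5 for Fcgr2b, below the cut on their own. The pair that did not agree both belonged to Laptm5.

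**Figure D3:**
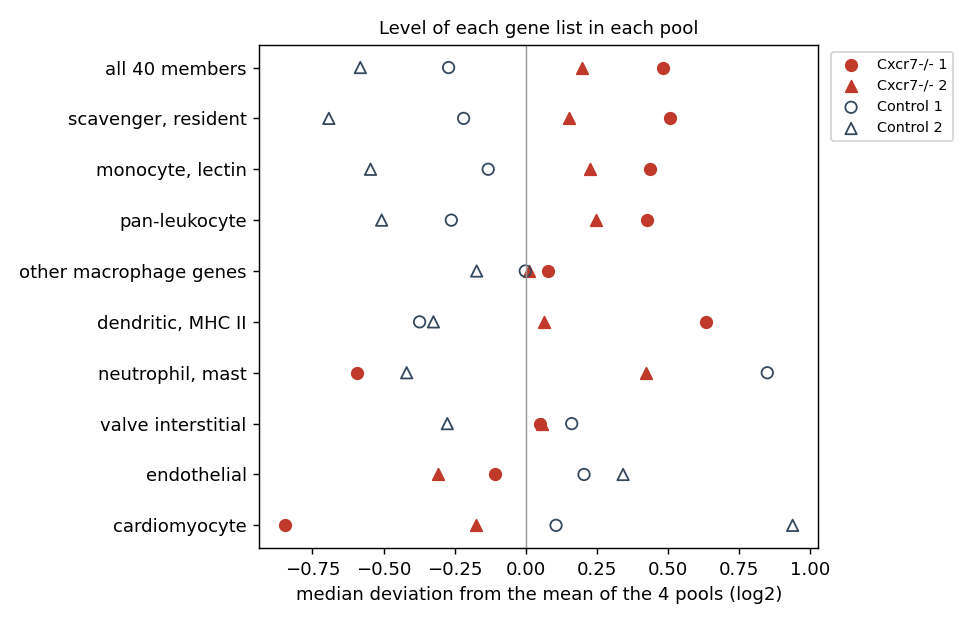
Median deviation of each gene list from the mean of the 4 pools (log2), by pool. For the 40 macrophage genes the order is Cxcr7-/- 1 at 0.48, Cxcr7-/- 2 at 0.20, Control 1 at -0.27 and Control 2 at -0.58, and for cardiomyocyte genes the order of the pools is the opposite.

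Pools of one genotype also differed among themselves. Cxcr7-/- pool 1 was the highest pool for 27 of the 40 genes, where it was highest for 23.1% of all genes, and Control pool 2 was the lowest for 29, where it was lowest for 30.4%. The descending order Cxcr7-/- 1, Cxcr7-/- 2, Control 1, Control 2 was seen in 15 genes (37.5%) and in 5.64% of all genes. The median absolute difference between the Control pools was 0.43 over the set, and between the Cxcr7-/- pools 0.29, beside a median absolute genotype difference of 0.71. For all genes the same 3 medians were 0.42, 0.32 and 0.30. The genotype means were further apart than the pools of either genotype, in the upward direction, for 22 of the 40 genes and for 11.8% of all genes.

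Leaving out pools moved the amount and left the direction of most genes. Without each pool in turn, 31 of the 40 genes remained positive every time, where 23.9% of all genes did. The 27 genes with both Cxcr7-/- pools above both Control pools had to remain positive, so this count is not separate from theirs. The median of the set was 0.53 without Cxcr7-/- pool 1, 0.56 without Control pool 2, 0.85 without Control pool 1 and 0.87 without Cxcr7-/- pool 2. The number at an unadjusted p under 0.05 fell from 18 to 3 without Cxcr7-/- pool 1, to 7 without Control pool 2 and to 10 without Cxcr7-/- pool 2, and was 19 without Control pool 1. Over all genes, the same count was 629 with all pools, 383 without Cxcr7-/- pool 1, 541 without Control pool 2, 359 without Cxcr7-/- pool 2 and 1198 without Control pool 1. Without Control pool 1, limma called 5 genes of the set at an adjusted p under 0.05, namely Mrc1 (0.0114), Ctss (0.0248), Msr1 (0.0321), F13a1 (0.0354) and Cx3cr1 (0.0499), and 673 probe sets in all. Under the other settings the adjusted p of these 5 genes ran from 0.0924 to 1. In the fit without Control pool 1, the single Control pool is assumed to vary like the other group.

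**Figure D4:**
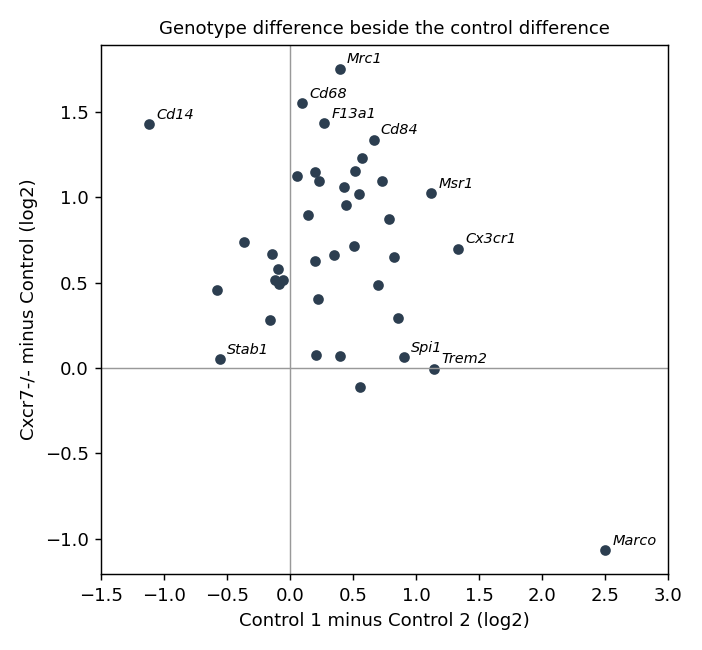
Genotype difference of each of the 40 genes (Cxcr7-/- minus Control, log2) against the difference between the Control pools (Control 1 minus Control 2, log2). Mrc1, Cd68 and F13a1 combine a large genotype difference with a small difference between Control pools, while Cx3cr1, Spi1, Trem2 and Marco differ more between the Control pools than between genotypes; both axes use the Control pools, so no relation is read from the plot.

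Markers of other cells moved with these pools. All 18 cardiomyocyte genes had negative log2 fold changes, with a median of -1.01, and in 15 both Cxcr7-/- pools lay below both Control pools (background 19.0%). Their summed signal came to 101527 and 150506 in Cxcr7-/- leaflets against 187588 and 270799 in Control leaflets, and none was at 0. The endothelial list had 8 of 14 genes lower without overlap (background 19.0%) and a summed signal of 17217 to 18545 against 22914 to 29952. Cell cycle genes went the other way, with 17 of 19 higher without overlap (background 18.3%) and summed signals of 57735 to 59031 against 37135 to 39336. The part of myocardial, endothelial or proliferating cells in the macrophage values was not tested.

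Valve interstitial genes showed no such shift, with 7 of 14 positive, a median of 0.01 and summed signals of 349193 and 362724 against 366401 and 262292. With every array centred on these genes, both Cxcr7-/- pools were above both Control pools for 26 of the 40 macrophage genes, where the background became 11.7%, and the median was 0.57. Interstitial and myocardial content are both bulk quantities here, and a share of cells cannot be read from them.

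Other macrophage and phagocyte genes, listed beside the set and not part of it, were nearer the background. Of 68 listed, 61 were matched, with a median of 0.16. In 15 (24.6%) both Cxcr7-/- pools were above both Control pools and in 9 (14.8%) both were below, beside 18.3% and 19.0% of all genes. None passed the adjusted threshold in limma, and at an unadjusted p under 0.05 in the fit without a filter 4 were higher and 1 lower. The background at that threshold was 3.46% of genes higher and 3.69% lower. The higher ones were Plek, a protein kinase C substrate of blood cells (0.82 ± 0.26), the endocytic adapter Dab2 (0.83 ± 0.25), the lysosomal protease Ctsc (0.86 ± 0.27) and Coro1a, an actin regulator of leukocytes (0.95 ± 0.31). The complement receptor gene C5ar1 was lower (-1.21 ± 0.42) at signals of at most 51.8. Many genes of this list are also made by other cells, as are some of the 40, such as Stab1 and Pf4. The part of other cells in either list was not tested. The growth factor gene Csf1 read 489.7 and 527 against 336 and 518, and Lyve1, a hyaluronan receptor of lymphatic vessels and resident macrophages, read 312 and 651 against 290.1 and 293. The 9 genes lower without overlap were Timd4, Cbr2, Mertk, Cd36, Gpnmb, Lipa, Clec7a, Syk and C5ar1. Among them, Mertk read 489 and 580 against 629 and 850, and Cd36 read 173 and 337 against 489 and 408.

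Markers of other leukocytes differed by list. Among the 12 matched dendritic cell and MHC class II genes, which present antigen, H2-Eb1 read 807 and 686 against 209 and 176 (1.84 ± 0.31) and H2-Aa read 2341 and 1937 against 863 and 909 (1.24 ± 0.26). H2-DMa (1.47 ± 0.42) and H2-Ab1 (0.87 ± 0.35) were also higher without overlap, while Cd74 overlapped (0.29 ± 0.45). Of the 12, 5 were higher and 1 lower without overlap (background 18.3% and 19.0%), with a median of 0.39. The lower one was Itgax, a dim dendritic cell marker that read 12.5 and 58.4 against 69.3 and 97.5 (-0.99 ± 0.63), and Flt3, another, was at most 51.9 in any pool. The 20 neutrophil and mast cell genes had a median of -0.33 and summed signals of 3351 and 5748 against 5824 and 2833. S100a8, a neutrophil protein gene, read 234 and 630.4 against 852 and 252, and the mast cell protease gene Cpa3 read 30.1 and 538 against 831 and 202. Both were high in Cxcr7-/- pool 2 and Control pool 1, the pair of pools in which Spi1, Ccr2, Lyz2 and Laptm5 of the macrophage set were also highest. The T cell gene Cd3e read at most 27.3 in any pool. Of the 11 matched lymphocyte genes 2 passed the filter, and their summed signal was 414 and 937 against 455 and 365. Other monocyte genes had a median of -0.33, with 4 of 11 higher and 3 lower without overlap, beside 18.3% and 19.0% of all genes. The defining marker Ly6c2 was not analysed here.

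Ackr3 lies on chromosome 1, as do 6 genes of the set, Fcgr2b, Fcgr3, Fcer1g, Cd84, Marco and Ptprc. Their median log2 fold change was 0.99, and it was 0.66 over the other 34 genes. Both Cxcr7-/- pools were above both Control pools in 5 of the 6 and in 22 of the 34, beside 18.3% of all genes.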

How the data were processed

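RNA from pooled leaflets (50 ng, 2 rounds of amplification, per the labels' protocols) was hybridised to 1 Affymetrix array per pool. The authors deposited 1 MAS5 intensity per probe set and array, linear and made in Affymetrix Expression Console per the submitters' processing notes. The software version is not given in the sources used here. Each array's middle 96% of probe sets averaged 500.003, so a signal is relative to its array's total. MAS5 background subtraction makes dim signals unsteady, and amplification favours the 3' end.

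Signals were taken as log2(signal + 22), the pseudocount being the 25th percentile, so fold changes of dim genes are understated. Of 45037 non-control probe sets, the 22518 with a mean above the median were fitted with limma 3.58.1 in R 4.3.3 (eBayes with an intensity trend, two-sided, Benjamini-Hochberg over those kept, threshold 0.05). Counts over the set used an unfiltered fit and 1 probe set per gene. Standard errors are from the filtered fit, or the unfiltered one for dim genes and for the further probe sets of a gene. The procedure was tested on simulated data. The number of arrays limits the precision.

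Of the non-control probe sets, 34945 had 1 gene symbol, 932 several and 9160 none; 20 entries of the comparison lists had no probe set of their own. Genes were named by a rule: every member, up to 5 genes of each other list by unadjusted p, and fixed defining markers. Postn, Lyve1, Csf1, Plac8, Ccr1 and Treml4 were chosen after their values were seen. So were the genes of the other macrophage list named as lower without overlap, apart from C5ar1. The members and lists were chosen with earlier results of these data known. Alternatives tried were the pseudocount, centring, quantile normalization, the filter, the trend, the probe set rule, a replicate block and leaving out each pool. No label ties replicate numbers to a litter or day, so pools were not paired.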

Additional observations from a re-analysis of the deposited data

How the results depend on the processing

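With arrays, signal over background limits the dim genes, Marco, Folr2, Trem2 and Clec10a most. The count of genes with both Cxcr7-/- pools above both Control pools was 27. It was 32 under median centring, 30 with quantile normalization and 26 with averaging of probe sets or centring on interstitial genes, where the background over all genes was 26.6%, 20.3%, 17.7% and 11.7%. It was 14 with a filter at the 75th percentile, where 20 of the 40 genes were left and the background was 23.3%, and 28 to 35 with a pool left out, where the background was 31.6% to 37.8%. Both lay below in 0 genes, in 2 when centred on interstitial genes and in 0 to 5 with a pool left out. At an unadjusted p under 0.05, 18 genes were higher, 8 with the filter at the 75th percentile, 12 to 19 under the other settings with all pools, apart from the crossed block, and 3 to 19 with a pool left out. The number lower was 0, and 0 to 1 with a pool left out. Over all genes tested, the count higher was 629, 983 with median centring and 291 when centred on interstitial genes. Adjusted calls in the set were 0 to 5 with a pool left out and 0 otherwise.

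Median centring moved the median of all genes from -0.02 to 0.12 and centring on interstitial genes moved it to -0.13; relative to it the set stood at 0.70 in both. The median of the scavenger group ranged over 0.50 to 0.98 with a pool left out, of the identity group over 0.38 to 0.90, of the C1q group over 0.25 to 0.91, of the Fc receptor group over 0.73 to 1.15 and of the pan-leukocyte group over 0.61 to 0.91. Averaging probe sets gave 0.60 for the scavenger, 0.68 for the Fc receptor and 0.56 for the pan-leukocyte group. The filter at the 75th percentile gave 0.52 for the Fc receptor group.

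Values near 0 changed sign. Folr2 was 0.026 with median centring and 0.014 with quantile normalization. Trem2 was 0.024 with the larger pseudocount, 0.13 with median centring and 0.14 with quantile normalization. Centred on interstitial genes, Laptm5 was -0.044, Lyz1 -0.035, Stab1 -0.058 and Spi1 -0.048. With a pool left out, the ranges were -0.39 to 0.17 for Folr2, -0.10 to 1.14 for Tyrobp, -0.13 to 0.26 for Laptm5, -0.028 to 0.18 for Lyz1, -2.32 to 0.18 for Marco, -0.23 to 0.33 for Stab1, -0.14 to 0.72 for Ccr2, -0.39 to 0.51 for Spi1 and -0.80 to 0.79 for Trem2. The causes were not tested.

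Same-numbered pools deviated in opposite directions (r = -0.26 over the probe sets kept), which gives no support for a pairing by number. With the replicate block 14 genes of the set were higher at an unadjusted p under 0.05 and 0 were called after adjustment. With the crossed replicate block, added after the data were seen like the interstitial centring, 20 were higher and 0 were called.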

Other observations

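Some genes of the comparison lists went another way than others of their list. Hdc, which encodes the histamine-forming enzyme of mast cells, read 1956 and 2244 in Cxcr7-/- leaflets against 1094 and 1137 in Control leaflets (0.90 ± 0.25, SE, n = 2 and 2 pools, adjusted p from limma 0.406), an order that the mast cell protease gene Cpa3 did not have. Nr4a1, a nuclear receptor gene of patrolling monocytes that is also an immediate early gene of many cells, read 2379 and 1209 against 724 and 687 (1.24 ± 0.35, adjusted p from limma 0.406). Ccr1, Itgal and Treml4 of the same list were also higher without overlap, while Cd177, Fn1 and Ace were lower without overlap. The monocyte gene Plac8 read 129 and 274 against 259 and 370.1, with overlap.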
